A study of Mus musculus with 18 samples.

Results

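Histone H3.3 was measured at 15 sites in 10 neuronal adhesion genes: the contactin genes Cntn3, Cntn4 and Cntn5, the contactin-associated genes Cntnap2 and Cntnap5c, the IgLON genes Ntm, Opcml and Negr1, and Dscam with its homologue Dscaml1. The sites come from 2 deposited lists of regions where the authors found H3.3 to differ, which hold 2300 sites in all. Every site that the authors assigned to the gene body or a promoter of these genes was kept, 11 from the comparison of susceptible re-exposed mice with controls and 4 from the comparison of acute stress with controls. Every site listed there has an authors' p under 0.0001, and the genes were picked from those lists. Their counts, directions and fold changes are therefore a description without a test of their own. The largest p among the 11 susceptible sites was 8.94e-05 and among the 4 acute sites 7.19e-05, and sites with a larger p are not analysed here.

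The tissue was the nucleus accumbens, a ventral striatal part of the reward circuit, of C57Bl/6J mice, and each library pooled the bilateral tissue of 5 animals. Susceptible re-exposed mice had been through chronic social defeat, were classed as susceptible by their social interaction 48 h later, and were killed 28 days after the last defeat following 1 h of renewed stress (5 min of attack and 55 min of housing beside the aggressor). Acute stress mice were controls that met the same 1 h of stress, and control mice came straight from the home cage. All 3 conditions are labelled with the same time of 28 days. Each condition had 3 H3.3 chromatin immunoprecipitation (ChIP) and 3 Input libraries, 18 in all. The susceptible table gives values for 3 susceptible and 2 control libraries and the acute table for 2 acute stress and 2 control libraries, and libraries are named here by their position in the table. Values are read counts normalised by the authors. Reads were recovered from them: 1 read was worth 0.828 to 1.63 normalised counts in the susceptible libraries against 0.534 and 0.918 in the controls of that table, and 0.951 and 1.43 in the acute stress libraries against 0.657 and 1.08 in the controls of that table. No library of susceptible mice without renewed stress was analysed here, so defeat, susceptibility and re-exposure cannot be told apart. In pooled tissue, fewer cells of a type and less H3.3 per cell cannot be told apart either.

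H3.3 is the form of histone H3 that is put into chromatin outside DNA replication, and in neurons, which no longer divide, it takes over much of the H3 pool with age. Contactins and IgLONs are immunoglobulin-domain proteins held to the neuronal surface by a lipid anchor, where they bind partners on the same or a neighbouring cell and take part in axon growth and synapse formation. Contactin-associated proteins span the membrane and pair with contactins, for instance where potassium channels cluster along the axon. Dscam proteins are adhesion molecules through which neurites of 1 cell recognise and avoid each other.

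All 10 genes are long, from 326.3 kb for Dscaml1 to 2241 kb for Cntnap2 in RefSeq (assembly GRCm38.p6, the patched release of mm10), with a median of 862 kb against 17.5 kb over autosomal protein-coding genes. The 15 sites were all gene body sites in the authors' annotation, and 0 were promoter sites. Promoter windows, from 250 bases before to 50 bases after a start in RefSeq, were at hand for 8 of the 10 genes (12 windows), and 0 listed sites overlapped one. The windows of Opcml and Dscam, which hold the starts of the authors' transcripts of those genes, are shown because Opcml was the member with a lower site in both tables and Dscam had the smallest p. CG dinucleotides, which are frequent in CpG island promoters, are in capitals:
Opcml: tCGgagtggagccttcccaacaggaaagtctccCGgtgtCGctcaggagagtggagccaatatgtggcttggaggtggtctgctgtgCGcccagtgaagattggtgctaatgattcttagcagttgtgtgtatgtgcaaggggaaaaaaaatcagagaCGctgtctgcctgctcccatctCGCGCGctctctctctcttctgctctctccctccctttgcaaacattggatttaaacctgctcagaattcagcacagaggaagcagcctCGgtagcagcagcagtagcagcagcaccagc
Dscam: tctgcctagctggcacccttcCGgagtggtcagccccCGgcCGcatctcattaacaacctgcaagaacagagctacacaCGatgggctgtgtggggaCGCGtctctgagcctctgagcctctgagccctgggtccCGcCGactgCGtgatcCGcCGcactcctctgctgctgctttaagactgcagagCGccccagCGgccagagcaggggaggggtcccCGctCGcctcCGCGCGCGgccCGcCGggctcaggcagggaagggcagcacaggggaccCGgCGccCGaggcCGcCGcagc

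The Opcml window (chr9:27791049-27791348, plus strand) holds 9 CG and the Dscam window (chr16:97170686-97170985, minus strand) holds 26. At least as many CG occur in 45.8% and 16.9% of the 32851 RefSeq windows of the same length, whose median is 7. Among the members the count ran from 0 in the Cntn3 window to 29 in the Negr1 window. Windows of the same gene differed too, with 19 and 2 CG in those of Ntm. The Cntn3, Cntn4 and Ntm windows, and the Cntnap2 window that begins at 47244146, lie inside the longer RefSeq genes, away from their outermost starts. The range therefore describes the windows at hand and does not compare the genes at matching starts. CG reads the same on both strands and was the single motif searched.

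The susceptible sites lay 42.5 to 995 kb from the start of the authors' transcript (median 404 kb), and 9 of the 11 lay beyond 100 kb. Over all lower gene body sites of the susceptible table the median distance was 66.6 kb, and 39.0% lay beyond 100 kb. That background was not matched for gene length. The authors' transcripts at the 11 sites are at least 301 kb long, so most of each lies beyond 100 kb from its start. Whether the 11 lie deeper than listed sites in genes of similar length was not tested. The map of positions shows the 11 sites spread along the transcripts, from 5.64% of the transcript length at Ntm to 93.5% at Cntnap5c. The nearest other listed site of the same table was 196 to 1747 kb away. The same distance over all listed sites is not analysed here. Whether a site falls in an exon or an intron is not analysed here.

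**Figure D1:**
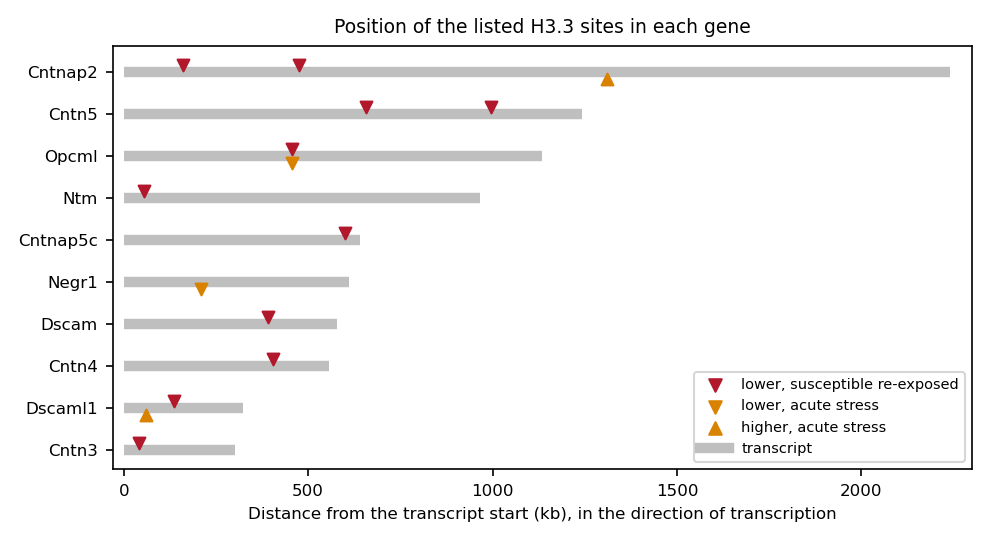
Distance of each listed site from the start of the authors' transcript (horizontal axis, kb), 1 row per gene, with grey bars for the transcript length; downward triangles are lower sites and upward triangles higher sites, in red for susceptible re-exposed and orange for acute stress mice. The Opcml sites of both tables sit at the same place, 457 kb in, while the Cntnap2 and Dscaml1 sites of the 2 tables sit at different places.

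Susceptible re-exposed mice were set against home-cage controls. Each of the 11 sites was lower in susceptible re-exposed mice than in controls, and they fell in 9 of the 10 genes. Negr1 had no listed site in this table. For background, 2.71% of autosomal protein-coding genes had a lower site there, and 35.6% of the 475 such genes at least as long as Dscaml1 did. Of these 475, 38 had 2 or more lower sites, as did Cntn5 and Cntnap2 among the 10. A higher site was listed in 0 of the 10 genes, beside 0.0871% of all genes and 0.842% of the long ones. Since 97.6% of the sites in this table were lower and 2.41% higher, the common direction of the 11 is near the background. Group means at the 11 sites ran from 0.553 to 4.21 normalised counts in susceptible mice and from 10.1 to 15.0 in controls. All 11 together rested on 57 susceptible and 372 control reads.

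Among the contactin genes, Cntn4 had the smallest p. Its product is an axon-associated contactin for which roles in olfactory and visual wiring are known in mice. The Cntn4 site (chromosome 6, 106522251 to 106522500) held 1.63, 0.83 and 1.47 normalised counts in the susceptible libraries, against 11.01 and 9.61 in the control libraries. That was 1 read in each susceptible library, against 12 and 18 in the control libraries. All 3 susceptible libraries were equally low in reads, and the groups were far apart. The ratio of pooled reads, susceptible over control, was 0.118 with an exact 95% interval of 0.0231 to 0.381, which like every such interval here covers counting error only. The authors' deposited table gives a log2 fold change of -2.98 with an adjusted p of 0.00137. The site lay 404 kb into the authors' transcript and 845 kb from the start of the longer RefSeq gene.

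Cntn5, whose product is known from the auditory pathway of mice, had 2 lower sites, 339 kb apart. The first (chromosome 9, 10248601 to 10248850, 656 kb from the start) held 1.63, 1.66 and 1.47 normalised counts in the susceptible libraries, against 10.1 and 10.1 in the control libraries. All 3 susceptible libraries were at nearly the same low level there. The second (9909551 to 9909800, 995 kb from the start) held 0, 1.66 and 2.94 in the susceptible libraries, against 11.01 and 10.1 in the control libraries. The pooled ratios were close, 0.158 (0.0404 to 0.448) at the first and 0.153 (0.0392 to 0.432) at the second, and the authors' deposited table has log2 fold changes of -2.68 and -2.79. Without susceptible library 1 the log2 fold change of the second site was -2.20, and without library 3 it was -3.67.

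Cntn3 encodes another contactin of the same branch as Cntn4 and Cntn5. Its site (chromosome 6, 102422076 to 102422325) was the nearest to a start, 42.5 kb in the authors' transcript, although 142 kb from the start of the longer RefSeq gene. It held 3.26, 1.66 and 0 normalised counts in the susceptible libraries, against 11.01 and 9.61 in the control libraries. The susceptible libraries differed from each other here, with library 3 at 0, but stayed below both controls. Pooled reads gave a ratio of 0.158 (0.0404 to 0.448), and the authors' deposited table a log2 fold change of -2.66 with an adjusted p of 0.00176. Leaving out susceptible library 1 gave -3.63 and leaving out library 3 gave -2.07.

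Of the contactin-associated genes, Cntnap2 encodes CASPR2, which gathers Kv1-type potassium channels beside the node of Ranvier and is linked to autism and epilepsy in humans. It carried 2 lower sites, 313 kb apart, in the early part of the gene. At the site 474 kb from the start (chromosome 6, 45533901 to 45534175) the susceptible libraries held 3.26, 0.83 and 2.94 normalised counts, against 11.01 and 11.2 in the control libraries. At the site 161 kb from the start (45220551 to 45220850) they held 6.51, 1.66 and 0, against 11.9 and 11.8. Every susceptible library had a read at 474 kb, while at 161 kb library 1 reached the highest value of any susceptible library at the 11 sites. The pooled ratios were 0.179 (0.0546 to 0.462) at 474 kb and 0.203 (0.0697 to 0.487) at 161 kb. The authors' deposited table has log2 fold changes of -2.25 and -2.12, and without susceptible library 1 the value at 161 kb was -3.83.

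Cntnap5c is 1 of the mouse genes of the CASPR5 group. Its site (chromosome 17, 58368351 to 58368625) lay 599 kb from the start, near the far end of the transcript. The libraries of susceptible mice held 0, 0.83 and 5.87 normalised counts, against 11.9 and 10.1 in controls. Library 3 carried 4 of the 5 susceptible reads, and the gap between the groups was the narrowest of the 11, at 4.27 normalised counts. The pooled ratio was 0.185 (0.0562 to 0.478), and the authors' deposited table gives a log2 fold change of -2.31 with an adjusted p of 0.00277. That value depended on single libraries, at -4.73 without susceptible library 3 and -1.72 without library 1.

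The IgLON genes Opcml and Ntm are neighbours on chromosome 9, 69.3 kb apart in RefSeq and read towards each other. Ntm encodes neurotrimin, which promotes or restrains neurite outgrowth depending on the neuron. The Ntm site (29908401 to 29908725), 54.6 kb from the start, held 1.63, 4.14 and 0 normalised counts in susceptible libraries, against 14.7 and 12.3 in control libraries. Its groups were 8.14 normalised counts apart, with susceptible library 2 the highest of the 3. Pooled reads gave a ratio of 0.182 (0.0630 to 0.433), and the authors' deposited table gives a log2 fold change of -2.81 with an adjusted p of 0.00118. Leaving out susceptible library 2 gave -4.05 and leaving out library 3 gave -2.22.

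Opcml encodes the opioid-binding cell adhesion molecule OBCAM. Its site (28248026 to 28248350), 457 kb from the start, had the highest mean of the 11 in both groups. The susceptible libraries held 3.26, 4.97 and 4.40 normalised counts and the control libraries 15.6 and 14.4, on 11 and 44 reads. All 3 susceptible libraries had reads, and the gap to the controls was the widest of the 11, at 9.44. The relative difference was the smallest, with a pooled ratio of 0.296 (0.138 to 0.582) and, in the authors' deposited table, a log2 fold change of -1.83 and the largest p of the 11.

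Dscam is known in mice for self-avoidance and cell spacing in the retina, and Dscaml1 for the same in other retinal neurons. The Dscam site (chromosome 16, 96778201 to 96778450), 392 kb from the start, held 0, 1.66 and 0 normalised counts in the susceptible libraries, against 10.1 and 10.7 in the control libraries. With 2 susceptible and 31 control reads its pooled ratio was the lowest of the 11, 0.0764 (0.00885 to 0.300). The authors' deposited table gives a log2 fold change of -4.23 with an adjusted p of 0.000741, and the site ranked 43 by p among the 1255 lower sites. Both reads came from library 2, so without that library the susceptible side was at 0 and had no fold change.

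The Dscaml1 site (chromosome 9, 45565276 to 45565575), 135 kb from the start, held 1.63, 2.48 and 4.40 normalised counts in susceptible libraries, against 11.9 and 12.8 in controls. Every susceptible library had a read, and none came near the controls. The pooled ratio was 0.224 (0.0842 to 0.509), and the authors' deposited table gives a log2 fold change of -2.12 with an adjusted p of 0.00206.

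**Figure D2:**
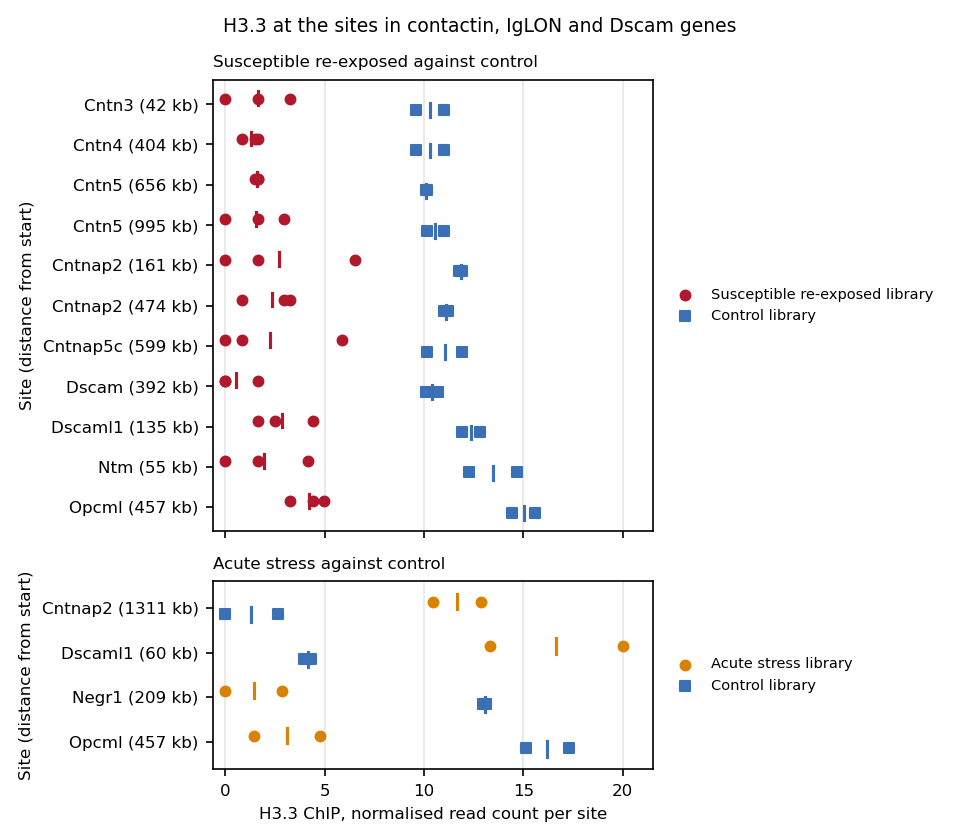
Normalised read count of each library (horizontal axis) at the 15 sites, 1 row per site with its distance from the transcript start; circles are stress libraries (red, susceptible re-exposed; orange, acute stress), squares are control libraries, and short vertical bars are group means. At the 11 susceptible sites no stress library exceeded 6.51 and no control library was under 9.61, and in the acute table the Cntnap2 and Dscaml1 sites go the opposite way to those of Negr1 and Opcml.

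The groups did not overlap at any of the 11 sites, and neither did they at 99.8% of all sites in this table. Of the 33 susceptible values at the 11 sites 7 were 0 (21.2%), against 15.9% over all lower sites. These zeros fell in library 1 at 3 sites and in library 3 at 4 sites, while library 2, in which a read is worth the fewest normalised counts of the susceptible libraries, had a read at all 11. Over all lower sites 23.2%, 2.87% and 21.8% of the values were 0 in libraries 1, 2 and 3. An authors' p under 0.00001 was given to 3 of the 11 (Cntn4, Dscam and Ntm), beside 20.7% of all lower sites. The control values began at 10.1 and 9.61, which were also the lowest control values over all 1255 lower sites. The median log2 fold change was -2.66 in the authors' deposited table for the 11 sites and -2.42 for all lower sites.

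The p of an exact binomial test of the pooled reads, which covers counting error only, is given as a description, because the same reads put the sites on the list. It was under 0.0001 at 10 of the 11 sites, all but Opcml, and at 99.1% of all sites in this table. With susceptible library 1, 2 or 3 left out it was under 0.0001 at 6, 2 and 6 of the 11, beside 38.8%, 13.9% and 31.6% of all lower sites. With control library 1 or 2 left out it was so at 4 and 2 of the 11, beside 34.7% and 15.9%. Fewer of the listed sites passed with any library left out, in these genes and in the table as a whole.

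Enrichment ratios are deposited per group, with no statement of their denominator in the sources used here. In the authors' deposited table the ratio was smaller in susceptible mice than in controls at 8 of the 11 sites. Both ratios were finite at 3 of the 11. Of these it was smaller at Dscam (0.08 against 0.60) and Ntm (0.83 against 1.20) and larger at Opcml. At the other sites with a smaller ratio the control ratio was infinite, so any finite ratio is smaller. In controls the ratio was infinite at 7 of the 11 sites (63.6%), beside 60.3% of all lower sites. It went against the counts at Opcml (1.13 in susceptible mice against 0.97 in controls) and at Cntn3 (infinite against 0.39), in the authors' deposited table, and was infinite in both groups at the Cntn5 site 995 kb from the start.

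Acute stress mice were set against the same controls to compare a single exposure with none. Their table lists 4 sites in these genes, 2 lower and 2 higher in acute stress mice than in controls. Lower sites were in Negr1 and Opcml, so in 2 of the 10 genes, beside 1.15% of autosomal protein-coding genes and 17.3% of those at least as long as Dscaml1. Higher sites were in Cntnap2 and Dscaml1, again 2 of 10, beside 1.12% and 12.8%. The whole table was split in a similar way, with 46.6% of its sites lower and 53.4% higher. The other 6 genes, Cntn3, Cntn4, Cntn5, Cntnap5c, Ntm and Dscam, had no listed site, and their values in acute stress mice are not analysed here.

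Negr1 encodes neuronal growth regulator 1, an IgLON that in humans lies at a locus linked to body mass and depression. Its site (chromosome 3, 156770951 to 156771225), 209 kb from the start, held 2.85 and 0 normalised counts in the acute stress libraries, against 13.0 and 13.1 in the control libraries. The controls were alike and both far above the acute stress libraries, of which library 2 had no read. By pooled reads the ratio was 0.131 (0.0257 to 0.419), and the authors' deposited table gives a log2 fold change of -3.20 with an adjusted p of 0.0095. Without acute stress library 2 the log2 fold change was -2.20, and without library 1 there was none because the remaining library was at 0.

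The acute Opcml site (chromosome 9, 28248076 to 28248350) held 4.75 and 1.43 normalised counts after acute stress, against 17.3 and 15.1 in controls. Both acute stress libraries had reads, 5 and 1, and lay more than 10 normalised counts below the controls. By pooled reads the ratio was 0.215 (0.0744 to 0.511), and the authors' deposited table gives a log2 fold change of -2.39 with an adjusted p of 0.0118. Without acute stress library 1 that value was -3.50, and without library 2 it was -1.77.

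At Cntnap2 (chromosome 6, 46370501 to 46370750, 1311 kb from the start) the acute stress libraries held 10.5 and 12.9 normalised counts, against 0 and 2.63 in the control libraries. Both acute stress libraries were high, on 11 and 9 reads, against 0 and 4 control reads. The pooled ratio of acute stress over control was 6.98 (2.34 to 28.1), and the authors' deposited table gives a log2 fold change of 3.15 with an adjusted p of 0.0107. With control library 1 left out it was 2.15, and with control library 2 left out the control side was at 0.

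At Dscaml1 (chromosome 9, 45490401 to 45490725, 60.3 kb from the start) the acute stress libraries held 13.3 and 20.01 normalised counts, against 4.33 and 3.94 in the control libraries. This was the best covered of the higher sites, with 28 acute stress and 10 control reads. Of the 4 acute sites, only this site had a fold change (not log2) that moved by less than 1.5 times whichever library was left out. The pooled ratio was 3.91 (1.84 to 9.02), and the authors' deposited table gives a log2 fold change of 2.01 with an adjusted p of 0.0118. Its enrichment ratio in the authors' deposited table was 3.39 in acute stress mice and infinite in controls, opposite to the counts.

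At all 4 acute sites the groups did not overlap, as at 100% of the sites in that table. None of the 4 had an authors' p under 0.00001 (0 lower and 0 higher), beside 16.9% of all lower and 15.5% of all higher sites. The p of the counting test, again a description, was under 0.0001 at all 4 and at 81.0% of all sites there. By direction it was so at 96.0% of all lower and 67.8% of all higher sites. With any 1 library left out it was so at 0 or 1 of the 2 lower sites, beside 2.11% to 33.6% of all lower sites, and at 0 of the 2 higher sites, beside 1.29% to 10.7% of all higher sites.

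Cntnap2, Dscaml1 and Opcml were listed in both tables. The control libraries are shared, since at the 18 sites of the series with the same coordinates in both tables the control reads were equal at 18, so the 2 comparisons are not independent. Opcml was lower in both, and its sites overlap by 275 bases. Over the whole of its own site, the mean was 4.21 ± 0.871 normalised counts in susceptible mice (SD, n = 3) and 15.0 ± 0.842 in controls (SD, n = 2). Over the whole of the acute site it was 3.09 ± 2.35 in acute stress mice and 16.2 ± 1.55 in controls (SD, n = 2 each). The 275 shared bases are the whole acute site, while the susceptible table has no value for them alone, and each table has its own normalisation. Cntnap2 was lower in susceptible mice at 161 and 474 kb and higher in acute stress mice at 1311 kb, 837 kb beyond the nearer of those sites. Dscaml1 was lower in susceptible mice at 135 kb and higher in acute stress mice at 60.3 kb, 74.9 kb away. At neither gene were opposite directions found at the same bases. Of the 475 long genes, 39 had lower sites in both tables and 26 had a lower site in susceptible and a higher one in acute stress mice.

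**Figure D3:**
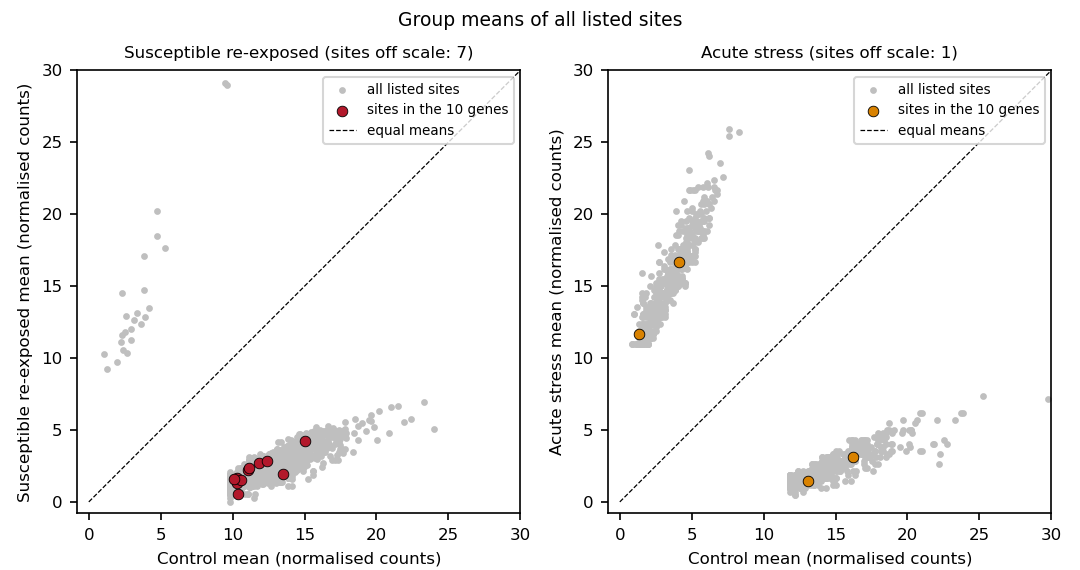
Stress mean (vertical axis) against control mean (horizontal axis), both in normalised counts, for all listed sites (grey) and the sites of the 10 genes (coloured), with the line of equal means dashed; 7 susceptible sites and 1 acute site lie beyond the axis limit of 30. The 11 susceptible sites lie in the cloud of lower sites, with control means from 10.1 upward against 9.85 at its left edge. The 4 acute sites are split between the lower and the higher cloud.

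The related families give the surroundings of these genes. Of 28 other genes of the contactin, contactin-associated, IgLON, NCAM, L1, SynCAM, sidekick, MDGA and nephrin-like families and Alcam, 6 had a lower site in susceptible mice (7 sites), beside the 2.71% of all genes, and 0 a higher one. By length, 10 of the 28 genes are at least as long as Dscaml1. Of those 10, 3 had a lower site, beside the 35.6% of all such genes. L1cam lies on the X chromosome, from which neither table lists a site.

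Cntnap3, a contactin-associated gene, had the smallest p of the 7 sites and lay closest to a start, at 5.71 kb (chromosome 13, 64898001 to 64898350). It held 1.63, 2.48 and 1.47 normalised counts in susceptible libraries, against 14.7 and 11.8 in controls, and the authors' deposited table has a log2 fold change of -2.83. Every susceptible library had at least a read and all 3 were alike. Mdga2, which encodes an inhibitor of neuroligin and neurexin pairing, had 2 lower sites, at 26.3 and 243 kb. Their mean normalised counts were 2.89 ± 0.392 and 2.36 ± 2.13 in susceptible mice (SD, n = 3) and 12.5 ± 1.80 and 13.2 ± 2.07 (SD, n = 2) in controls. The other lower sites were in Nrcam of the L1 family, Ncam1, the SynCAM gene Cadm2 and Kirrel3, and their log2 fold changes in the authors' deposited table lay between -2.15 and -2.85.

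After acute stress 3 of the 28 genes had a lower site, beside 1.15% of all genes, and 1 a higher site, beside 1.12%. These 3 and this 1 are all among the 10 long genes, where the shares over all long genes were 17.3% lower and 12.8% higher. Sdk1, a sidekick gene that in mice guides synaptic matching in the retina, held 2.85 and 0 normalised counts in acute stress libraries, against 13.0 and 18.4 in controls. The SynCAM genes Cadm1 and Cadm2 held 3.57 ± 1.02 and 4.28 ± 2.03 in acute stress mice, against 15.2 ± 1.68 and 17.9 ± 2.15 in controls (SD, n = 2 each). Cadm2 was thus lower in both tables, at sites 827 kb from the start in susceptible mice and 613 kb in acute stress mice. Mdga2 carried the higher site, which was the one promoter site of these families (chromosome 12, 67224626 to 67224925, 2.23 kb upstream of the start). It held 12.4 and 17.2 normalised counts in acute stress libraries, against 4.33 and 2.63 in control libraries, a pooled ratio of 4.37 (1.91 to 11.2). Its p in the counting test was 0.000118, so it did not pass at 0.0001. By the listing, Mdga2 joined Cntnap2 and Dscaml1 in having lower sites in susceptible mice and a higher site elsewhere in acute stress mice.

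**Figure D4:**
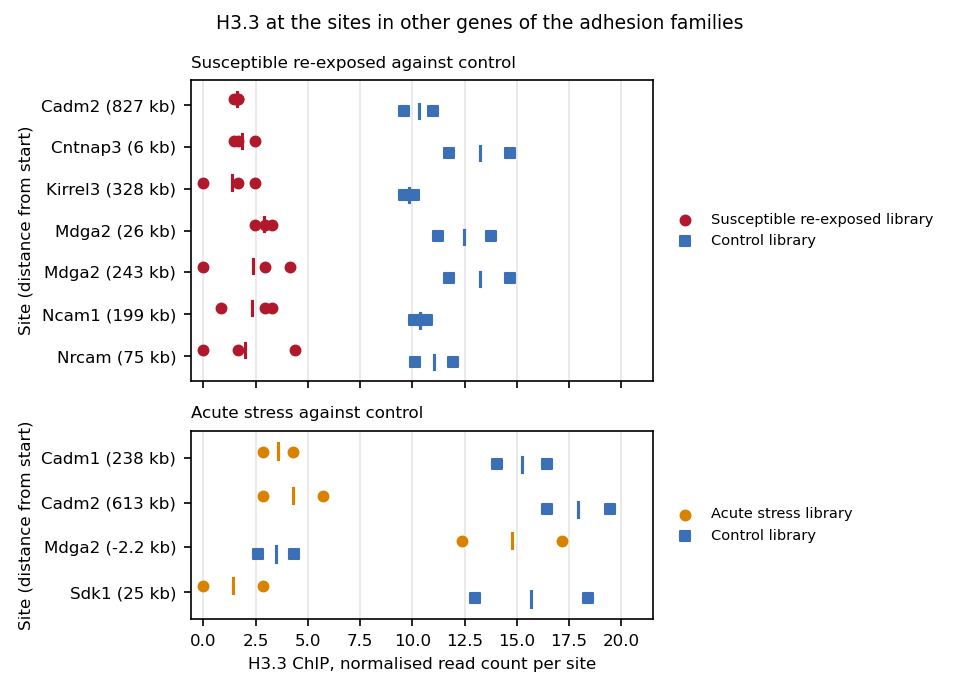
Normalised read count of each library (horizontal axis) at the 11 sites in the other genes of these families, drawn as for the 10 genes; circles are stress libraries, squares control libraries and short bars group means. All susceptible sites are lower than controls, and the promoter site of Mdga2 is the higher one after acute stress.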

How the data were processed

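H3.3 ChIP-seq of mouse nucleus accumbens was analysed from 2 deposited tables of differential sites. The submitters' processing notes name Bowtie2 2.2.0, SAMtools 0.1.19 and the build mm10. The names of the deposited tables carry diffReps, windows of 250 bp and a p threshold, and every listed p is under 0.0001. The sources used here do not state the authors' test, normalisation or further filters. Read counts per library, normalised by the authors, fill the count cells. The average columns hold the mean signal of a group, per the file headers. Enrichment ratios, log2 fold changes and p-values were deposited by the authors. Total library sizes are not given, so depth is known only from the worth of 1 read.

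The 10 genes, the related families and the alternatives were chosen with earlier results of these data known. All sites of the 10 genes are named, and of the related families each gene with a site. Whole reads were recovered for 99.9% to 100% of values per library, within 0.011 normalised counts. On simulated data 100% of reads were recovered in both, and the counting test called 87.5% (susceptible) and 79.0% (acute) of sites made 8-fold lower. Pooled folds, control over stress, had a median of 5.58 at the lower susceptible sites and were 4.65 and 7.64 at the lower acute sites. Recovery at folds under 8 was not simulated. Pooled reads were divided by relative depth, with exact Clopper-Pearson 95% intervals and a two-sided exact binomial test that sums all outcomes no more probable than the one seen. Both cover counting error only, and the p is a description, since the same reads chose the sites. The planned tests were none beyond this, because the tables hold listed sites only. Site sequences and exon positions are not analysed here. RefSeq GRCm38.p6 gave gene spans and promoter windows. Python 3.11.15, pandas 2.3.3 and scipy 1.17.1 were used.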

Additional observations from a re-analysis of the deposited data

How the results depend on the processing

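The groups do not overlap at any of the 15 sites, so pooled reads, a pseudocount of 1 or leaving out a library could not turn a direction, and only sizes are given. The 98 recomputed log2 fold changes had sizes of 1.54 or above. With a library left out, 13 of the 68 values, at 8 sites, moved by more than 1.5 times as fold changes (not as log2). For 3 combinations (Dscam, Negr1 and the acute Cntnap2 site) no value could be had because the remaining libraries were at 0. The counts of 11 lower susceptible, 2 lower acute and 2 higher acute sites could not change when only gene body sites were kept, since all 15 are such sites, and were within 1.5 times of these when sites were assigned by RefSeq span (12, 2 and 2) and under the exact counting test (10, 2 and 2). With the smaller tail of that test doubled, an alternative chosen after seeing the data, 1 of the 2 higher acute sites passed. The Dscaml1 site did not. Its p in the exact counting test was 9.38e-05, close to the threshold of 0.0001, against 3.84e-05 at the acute Cntnap2 site. At an authors' p under 0.00001 there were 3 lower susceptible sites (Cntn4, Dscam and Ntm), 0 lower acute and 0 higher acute sites, beside 20.7% of all lower susceptible, 16.9% of all lower acute and 15.5% of all higher acute sites. With susceptible library 1, 2 or 3 left out, the counting test passed at 6, 2 and 6 lower susceptible sites, and without control replicate 1 or 2 at 4 and 2. In the acute table it passed at 0 to 1 lower and 0 higher sites without a replicate; fewer reads enter it by construction, and the share of all listed sites that passed was lower too. No paired analysis was possible because the values per library carry no replicate number. With 2 to 11 stress reads at a lower site, the counts limit every fold given.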

Other observations

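Gene assignment leaves out some sites that lie inside the RefSeq span of these families. Lsamp, the IgLON gene of the limbic system-associated membrane protein, spans 2197 kb of chromosome 16 in RefSeq, and 3 listed sites lie within it that the authors' annotation places in gene deserts. In susceptible mice the site at 40252151 to 40252525 held 1.63, 3.31 and 1.47 normalised counts, against 14.7 and 13.9 in controls. The site at 41361426 to 41361700 held 0, 3.31 and 2.94 in susceptible libraries, against 12.9 and 10.7 in controls. After acute stress the site at 41006001 to 41006250 held 0 and 1.43 normalised counts, against 11.9 and 11.8 in controls, on 1 acute stress and 29 control reads. All 3 were lower in stressed mice, at 3 different positions. By span, Lsamp would thus be an IgLON gene with lower sites in both tables, as Opcml is.

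Another lower site of Cntn5 in susceptible mice lies at chromosome 9, 9652976 to 9653325, 7.74 kb past the end of the authors' transcript but inside the RefSeq gene. It held 1.63, 3.31 and 1.47 normalised counts in the susceptible libraries, against 13.8 and 14.4 in the control libraries, on 6 and 42 reads.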
